A study of Homo sapiens with 4 samples.

Results

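The 10 genes described here take cells from cystine and methionine to glutathione and back: SLC7A11, CTH, CBS, GCLM, GCLC, GSS, GSR, CHAC1, MAT2A and AHCY. They are 10 of the 14267 genes named on the arrays, found by the gene name in the files or by the current symbol of the transcript behind the probe, and all 10 had 1 probe. They were chosen by pathway and by their measured response on these same arrays. Their treated to control ratios are therefore given as a description, and calls are only counted.

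Human K562 cells, an established erythroleukemia line, were treated with AC-1041, a thalidomide analog, for 4 h. RNA of treated and of control cells was hybridized together on each of 4 Agilent two-colour microarrays, and the dyes were swapped on a pair of them. Arrays 1 and 2, where treated RNA was labelled with Cy5, are called the Cy5 arrays, and arrays 3 and 4, where it was labelled with Cy3, the Cy3 arrays. The labels call the control cells untreated, whereas the methods of the study name a DMSO control. The labels give no dose, and the methods and results of the study describe it in different terms. The methods name 4 samples of treated cells and of controls. No source says which culture went on which array, so the spread between arrays may be technical. K562 is 1 cell line, and 1 compound and 1 time were measured.

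Cystine, the oxidized dimer of cysteine, enters cells through system xc-, an exchanger for glutamate whose light chain is SLC7A11 and whose heavy chain is SLC3A2. Cysteine can also be made from methionine: MAT2A makes S-adenosylmethionine, AHCY splits the S-adenosylhomocysteine left after methyl transfer into homocysteine and adenosine, CBS joins homocysteine to serine, and CTH releases cysteine from the cystathionine so formed. Glutamate-cysteine ligase, with its catalytic subunit GCLC and its modifier subunit GCLM, makes the dipeptide to which GSS adds glycine. GSR returns oxidized glutathione to its reduced form, and CHAC1 cleaves glutathione in the cytosol. Several of these genes are textbook targets of the transcription factors ATF4 and NFE2L2 (NRF2).

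The 250 bases before the start site, from RefSeq (GRCh38.p14), are shown for CTH, GCLM, GCLC and CHAC1, the genes with the larger ratios among the 7 of 10 that had an entry. The promoters are written 5′ to 3′ on the strand of the gene, and capitals mark a match to 1 of 3 motifs searched on both strands. The CTH promoter lies at chr1:70411018-70411267 (plus strand), that of GCLM at chr1:93909431-93909680 (minus strand), that of GCLC at chr6:53545102-53545351 (minus strand) and that of CHAC1 at chr15:40953221-40953470 (plus strand).
CTH: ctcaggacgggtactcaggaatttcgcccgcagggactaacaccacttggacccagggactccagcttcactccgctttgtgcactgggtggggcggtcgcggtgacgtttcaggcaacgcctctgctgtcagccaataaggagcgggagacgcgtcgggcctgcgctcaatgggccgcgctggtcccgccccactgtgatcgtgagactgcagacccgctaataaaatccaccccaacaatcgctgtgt
GCLM: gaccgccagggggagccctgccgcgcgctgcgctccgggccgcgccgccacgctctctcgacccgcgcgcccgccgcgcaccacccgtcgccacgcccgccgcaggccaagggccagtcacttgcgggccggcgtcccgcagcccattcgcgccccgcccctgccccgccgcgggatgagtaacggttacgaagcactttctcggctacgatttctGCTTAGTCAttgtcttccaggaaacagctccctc
GCLC: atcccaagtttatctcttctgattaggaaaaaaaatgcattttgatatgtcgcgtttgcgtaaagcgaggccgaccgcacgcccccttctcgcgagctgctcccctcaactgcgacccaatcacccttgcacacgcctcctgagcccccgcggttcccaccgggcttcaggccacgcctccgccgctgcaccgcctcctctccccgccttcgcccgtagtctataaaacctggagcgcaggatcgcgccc
CHAC1: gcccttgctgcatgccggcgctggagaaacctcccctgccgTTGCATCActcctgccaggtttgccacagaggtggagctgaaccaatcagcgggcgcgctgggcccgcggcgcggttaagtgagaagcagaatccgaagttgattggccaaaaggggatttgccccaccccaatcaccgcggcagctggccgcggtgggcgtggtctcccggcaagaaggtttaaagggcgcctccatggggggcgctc

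The capitals in CHAC1 are the CEBP-ATF response element, TGATGNAA, 209 to 202 bases before the start site and on the strand opposite to the gene. This motif was in 3.14% of the 35116 promoters of this length. The capitals in GCLM are the core of the antioxidant response element, TGACNNNGC, 34 to 26 bases before the start site, also on the opposite strand. That core was in 10.9% of all promoters, and among the 7 genes with an entry it was found once more, 83 to 75 bases before a start site of CBS. The cAMP response element TGACGTCA, present in 1.65% of all promoters, was in none of them, and the windows of CTH, GCLC, MAT2A and AHCY held none of the 3 motifs. No match overlapped another. A match is a description of the letters and was not set against any binding data.

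All 10 genes passed the filter on dim probes, which asked that on 2 or more arrays either channel stood well above background. For 9 of them both channels did so on each of the 4 arrays. The exception was SLC7A11, whose control channel was well above background on 3 of the 4 arrays. On array 1 the spots of CBS, GSS and MAT2A were marked as outliers by the scanner software, so that the fit used 3 arrays for these 3 genes. Negative control spots had an SD of 226 to 308 on arrays 1 and 2 and of 27.8 to 40.5 on arrays 3 and 4, so that array quality cannot be told apart from dye orientation. Over all tested probes the treated to control ratios correlated at 0.81 between arrays 1 and 2 and at 0.94 between arrays 3 and 4, but at -0.29 to -0.12 across orientations. Of 12 erythroid markers on the array, 11 were well above background in control cells on every array, and so were 6 of 13 markers of T and B lymphocytes, monocytes and epithelium. The log2 ratios of the latter that could be tested lay between -0.31 and 0.02, and their part in the results below was not tested.

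Genes at the entry of cystine and at the first step of glutathione synthesis had higher levels in treated cells, and so did CTH, the last enzyme of transsulfuration. MAT2A had a lower level. In bulk RNA, fewer cells with a transcript and less of it per cell cannot be told apart. The limma fit had a treatment and a dye term. At an adjusted p under 0.05 it called 5 of the 10 genes higher, beside 24.3% of all 8852 tested probes. It called 1 of the 10 genes lower, a direction called for 13% of all probes. Without the dye term 1 of the 10 genes was called higher and 0 were called lower. Of all 8937 probes tested in that setting, 52 were called higher and 4 lower. The genes were selected on this contrast, so nothing is read from these counts. SLC7A11, CTH, GCLM, GCLC and CHAC1 were higher, and MAT2A lower, on every array that measured them. The signs of the other members differed between arrays. The ratios of all 10 genes had a median of 0.35 (log2), beside 0.02 for all tested probes.

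SLC7A11, the cystine-specific light chain of system xc-, had log2 ratios of 1.72 and 1.44 on the Cy5 arrays and of 3.70 and 3.63 on the Cy3 arrays. Treated cells had the higher level on all 4, and the ranges of the dye orientations did not overlap. Its fitted log2 ratio of 2.62 ± 1.21 (SD, n = 4 arrays) was a 6.15-fold difference, with a control channel well above background on 3 of the 4 arrays. Its probe covers bases 139306007 to 139306066 of chromosome 4 (hg18). Normalized intensities, which are on the scale of each array, were 4176 in treated against 1269 in control cells on array 1 and 5793 against 2136 on array 2. On arrays 3 and 4 the treated values were 6778 and 7890 and the control values 522 and 639. The control channel read higher on the arrays with the wider background. The part of that background in the ratio was not tested.

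CTH, also called cystathionine gamma-lyase, had log2 ratios of 1.89, 2.64, 2.48 and 2.83 on arrays 1 to 4. The lowest value was that of array 1, and the orientations overlapped. The fitted log2 ratio was 2.46 ± 0.40 (SD, n = 4), or 5.51-fold. Its probe covers bases 70677629 to 70677688 of chromosome 1 (hg18). The control channel stayed within 5152 to 6110 on the 4 arrays, while the treated channel read 20024, 32126, 31974 and 43533. CBS, the enzyme just before it, did not share this difference in level. The log2 ratio of CBS was 0.34 on array 2, -0.27 on array 3 and 0.09 on array 4, with signs that differed within the Cy3 orientation. Its fitted value was 0.12 ± 0.31 (SD, n = 3 arrays), smaller than its spread.

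**Figure D1:**
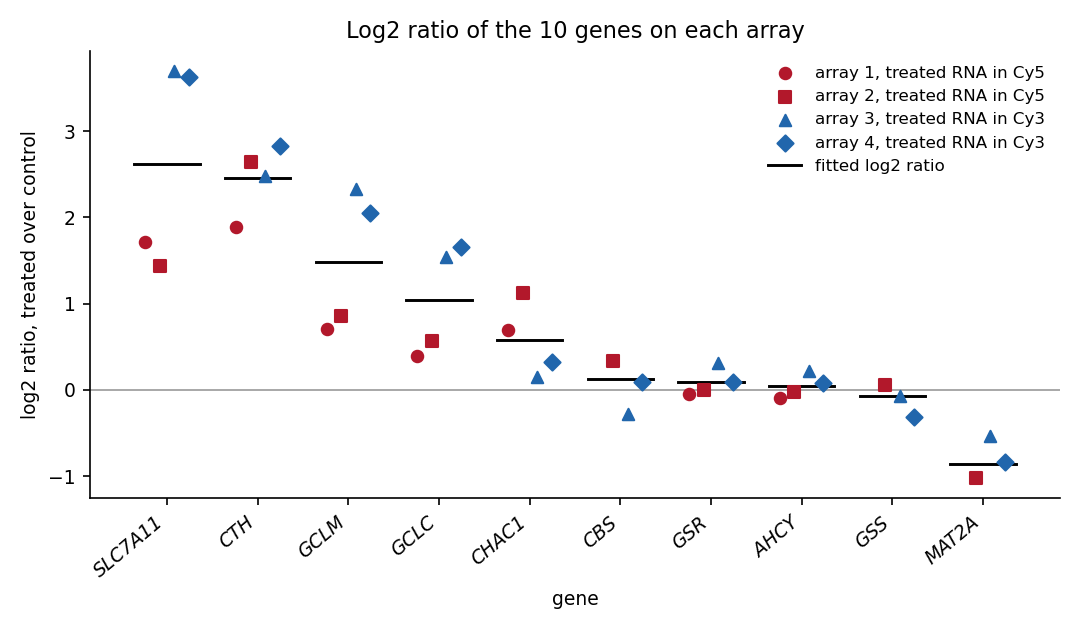
Log2 ratio of treated to control cells (vertical axis) for each of the 10 genes (horizontal axis), ordered by the fitted ratio (black bar). Each point is 1 array, red for the Cy5 arrays and blue for the Cy3 arrays. SLC7A11, GCLM and GCLC are higher in blue, CHAC1 is higher in red, CTH mixes both colours, and MAT2A lies below 0 on its 3 arrays.

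Both subunits of glutamate-cysteine ligase were higher on every array. GCLM, the modifier subunit, had log2 ratios of 0.70 and 0.86 on the Cy5 arrays and of 2.33 and 2.05 on the Cy3 arrays. The fitted value was 1.49 ± 0.82 (SD, n = 4), or 2.80-fold, from a probe on chromosome 1 of hg18 (94123842 to 94123901). GCLC, the catalytic subunit, had log2 ratios of 0.40, 0.57, 1.54 and 1.66 on arrays 1 to 4. Its fitted value was 1.04 ± 0.65 (SD, n = 4), or 2.06-fold, and its probe spans chromosome 6 from 53471396 to 53471459. The 2 subunits followed the same order of orientations, and GCLM exceeded GCLC on all 4 arrays, by 0.44 ± 0.24 (SD) on the log2 scale.

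GSS, which completes glutathione, had log2 ratios of 0.05, -0.07 and -0.32 on arrays 2, 3 and 4, and a fitted value of -0.07 ± 0.19 (SD, n = 3). GSR, which recycles it, had log2 ratios of -0.05, 0.00, 0.31 and 0.09 on arrays 1 to 4, with a fitted value of 0.09 ± 0.16 (SD, n = 4). Neither moved beyond its own spread, so that the larger ratios within glutathione synthesis were those of its first step. CHAC1, the gamma-glutamyl cyclotransferase that degrades glutathione, had log2 ratios of 0.70 and 1.13 on the Cy5 arrays and of 0.14 and 0.33 on the Cy3 arrays. It was higher on every array, by a fitted 0.57 ± 0.43 (SD, n = 4), or 1.49-fold. Its control channel lay within 4285 to 5186, and its treated channel read 8326 and 9358 in Cy5 and 5382 and 6513 in Cy3. The probe covers bases 39035814 to 39035873 of chromosome 15 (hg18).

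MAT2A, which opens the methionine cycle, had log2 ratios of -1.02, -0.54 and -0.84 on arrays 2, 3 and 4. Treated cells had the lower level on each of these arrays, with a fitted log2 ratio of -0.85 ± 0.24 (SD, n = 3), a 1.81-fold lower level. In intensity it read 58376 in treated against 118432 in control cells on array 2, 50569 against 73502 on array 3 and 42288 against 75516 on array 4. The probe covers bases 85625813 to 85625872 of chromosome 2 (hg18). AHCY, which yields homocysteine later in the cycle, had log2 ratios of -0.09, -0.02, 0.21 and 0.08 on arrays 1 to 4. Its fitted value was 0.05 ± 0.13 (SD, n = 4), within its spread.

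**Figure D2:**
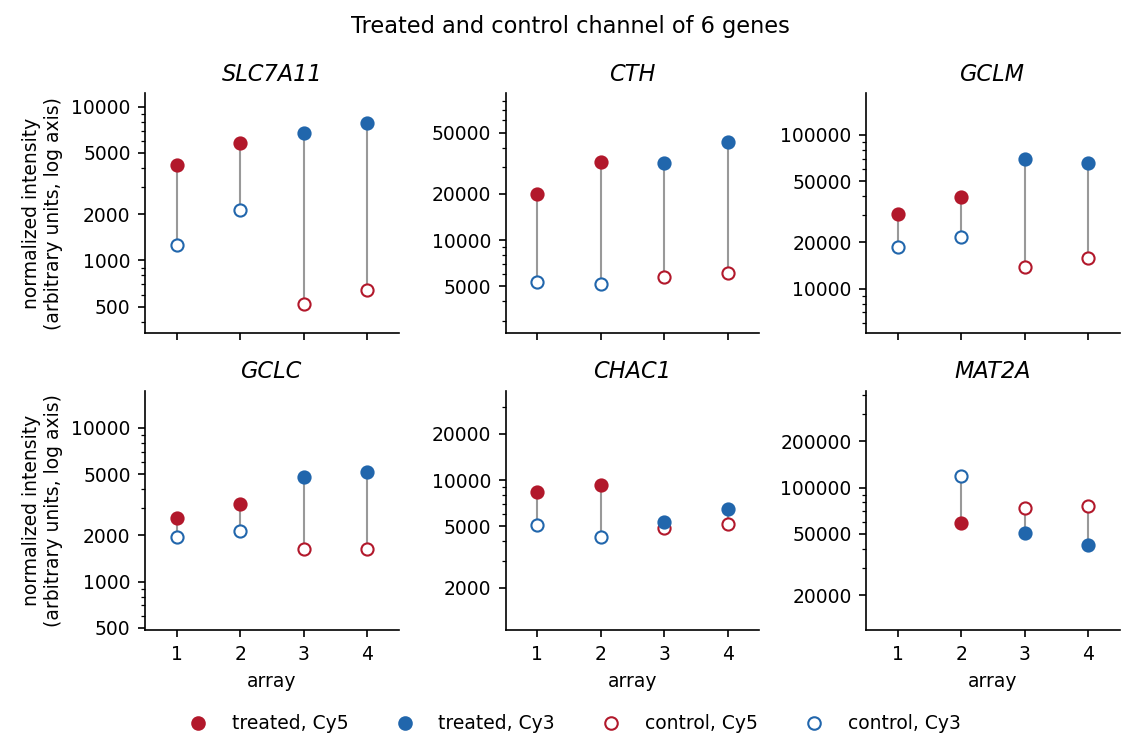
Normalized intensity (vertical log axis, arbitrary units on the scale of each array) of the treated channel (filled) and the control channel (open) on arrays 1 to 4 for 6 genes. Red is Cy5 and blue is Cy3, and a grey line joins the channels of 1 array. For SLC7A11 the control channel falls from 1269 and 2136 on arrays 1 and 2 to 522 and 639 on arrays 3 and 4, while the control channel of CTH stays between 5152 and 6110. MAT2A has no point on array 1.

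Neighbours in the order of fitted ratios were compared within arrays. SLC7A11 exceeded CTH on arrays 3 and 4 and lay below it on arrays 1 and 2, so that the mean difference of 0.16 ± 1.08 (SD, n = 4) gave no order. CTH exceeded GCLM on all 4 arrays, by 0.98 ± 0.69 (SD). GCLC and CHAC1 changed places with the dye, with a mean difference of 0.47 ± 1.04 (SD, n = 4). CHAC1 lay above CBS on the 3 arrays that measured both, by 0.48 ± 0.28 (SD). CBS, GSR, AHCY and GSS followed, and of their 3 neighbouring pairs only GSR and AHCY differed by as much as the SD of the difference, at 0.04 ± 0.04 (SD, n = 4). GSS lay above MAT2A on 3 of 3 arrays, by 0.69 ± 0.34 (SD).

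The ratio of a gene should not depend on which dye the treated RNA carried. The genes were chosen on the treated to control contrast of these arrays. The difference between orientations is a separate term of the fit, and it was tested. With a limma adjusted p under 0.05, the ratios of 4 of the 10 genes differed between orientations, where 58.2% of all tested probes did. For 3 of the 10 the ratio was larger on the Cy3 arrays, as for 31.5% of all probes, and for 1 it was larger on the Cy5 arrays, as for 26.8%. These shares are near or below those of all probes. SLC7A11 had the widest gap, with an orientation difference (Cy5 minus Cy3) of -2.08 (standard error 0.14, limma adjusted p = 1.9e-05). GCLM differed by -1.41 (standard error 0.15, limma adjusted p = 0.00013) and GCLC by -1.12 (standard error 0.14, limma adjusted p = 0.00026). CHAC1 ran the other way, by 0.67 (standard error 0.17, limma adjusted p = 0.0095). For CTH the difference was -0.39 (standard error 0.24, limma adjusted p = 0.19), and MAT2A, with -0.33 (standard error 0.19), also missed the threshold. The median over the 10 genes was 0.41 (log2) on the Cy5 arrays and 0.22 on the Cy3 arrays.

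**Figure D3:**
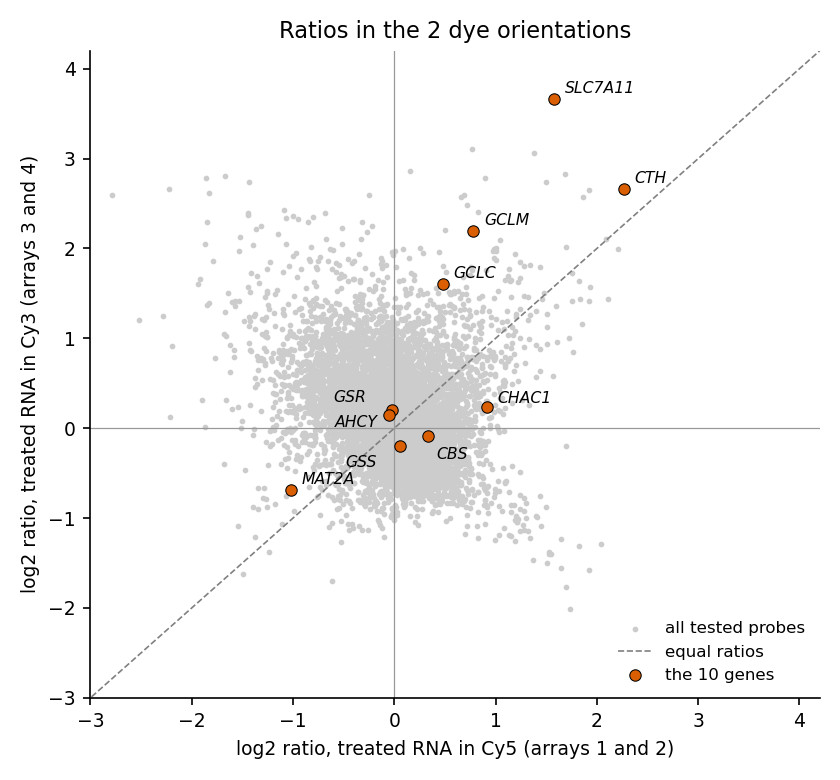
Mean log2 ratio of treated to control cells on the Cy5 arrays (horizontal axis) against that on the Cy3 arrays (vertical axis). Grey points are the 8852 tested probes, orange points the 10 genes, and the dashed line marks equal ratios. CTH (2.27 and 2.66) lies near the line, SLC7A11 (1.58 and 3.66), GCLM and GCLC lie above it, CHAC1 (0.91 and 0.24) lies below it, and MAT2A is below 0 on both axes.

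The genes whose 4 ratios lay nearest to those of SLC7A11 and of CTH were looked up among 4821 genes measured in both channels on every array, by Euclidean distance. For SLC7A11 these were DNAJB4 (distance 1.01), HERPUD1 (1.54) and HSPA4L (1.68). DNAJB4, a J-domain cochaperone, had log2 ratios of 1.26, 1.50, 2.89 and 3.24 on arrays 1 to 4. Its larger values on the Cy3 arrays are favoured by the choice by distance to SLC7A11. For CTH these were DUSP1 (0.60), HERPUD1 (0.69) and HSPH1 (1.23). DUSP1, a MAP kinase phosphatase, had log2 ratios of 1.59, 2.15, 2.36 and 2.78. HERPUD1, a protein of the endoplasmic reticulum stress response, had log2 ratios of 1.87, 1.97, 2.58 and 2.72. The distances are descriptions over 4 arrays that share their cells and dyes.

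Other genes of the pathway were taken from 7 lists with 90 genes, of which 84 were on the array and 65 could be tested. Of these, 20 were higher and 3 lower at a limma adjusted p under 0.05 over all probes, where 24.3% and 13% of all probes were. The lists were chosen with earlier results of these data known, so nothing is read from these counts. For the same reason the p-values of single list genes are not independent support for their differences. The median of the 65 log2 ratios was 0.04, and 16 of the 23 called genes had 1 sign on every array that measured them. In this fit the dye term absorbs what separates the Cy5 from the Cy3 arrays, so these p-values reflect the spread among arrays with the same labelling. Without the dye term 6 of these 23 genes were past the threshold, namely ATF3, CEBPG, DDIT3, MAFF, SRXN1 and TRIB3. Of all 8937 probes tested in that setting, 52 were higher and 4 lower.

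Of 4 tested genes for cystine and cysteine transport, 3 were higher and 1 lower, with a median log2 ratio of 0.64. SLC3A2, the heavy chain that carries SLC7A11 to the membrane, rose by a log2 ratio of 1.07 ± 0.61 (SD, n = 3 arrays, limma adjusted p = 0.00031). Its values were 1.57 on array 2, 0.37 on array 3 and 0.80 on array 4, and the spot on array 1 was marked. SLC3A2 gave a larger ratio on array 2, its only Cy5 array, than on the Cy3 arrays, with an orientation difference (Cy5 minus Cy3) of 0.98. SLC7A11 gave the smaller ratio on the Cy5 arrays. SLC1A4, a neutral amino acid transporter, rose by 0.87 ± 0.45 (SD, n = 4, limma adjusted p = 0.00020), and CTNS, the exporter of cystine from lysosomes, by 0.42 ± 0.35 (SD, n = 4, limma adjusted p = 0.0017). Both were higher on every array. These 3 calls were lost without the dye term, at limma adjusted p-values of 0.24, 0.12 and 0.34. SLC7A8, a neutral amino acid exchanger, was the gene called lower, at -0.27 ± 0.25 (SD, n = 4, limma adjusted p = 0.043), with a value of 0.11 on array 1 and of -0.39, -0.36 and -0.42 on the others. That call was lost under 8 of 13 other settings of the fit.

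In the methionine cycle and remethylation list 1 of 6 tested genes rose and none fell by the limma test, also at an unadjusted p under 0.05, with a median log2 ratio of -0.06. That gene was MAT2B, the regulatory subunit that pairs with MAT2A, at 0.27 ± 0.20 (SD, n = 4, limma adjusted p = 0.027), and it was higher on every array where MAT2A was lower. Of 7 tested genes for the breakdown of cysteine and sulfide, 2 rose, GOT1 by 0.25 ± 0.17 (SD) and SUOX by 0.22 ± 0.19 (SD), and the median was 0.05. GOT1 is the cytosolic aspartate transaminase, and SUOX oxidizes sulfite. The calls of MAT2B and GOT1 were lost under 5 of 13 other settings of the fit and that of SUOX under 7 of 13.

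Of 14 tested redox enzymes of glutathione and thioredoxin, 5 rose and none fell (6 and 0 at an unadjusted p under 0.05 from limma), with a median log2 ratio of 0.05. SRXN1, which repairs overoxidized peroxiredoxins, had values of 1.17, 1.30, 0.91 and 1.11 on arrays 1 to 4 and a fitted 1.12 ± 0.16 (SD, limma adjusted p = 2.0e-05). It was past the threshold in every alternative setting. TXNRD1, the cytosolic thioredoxin reductase, rose by 0.68 ± 0.25 (SD, n = 4, limma adjusted p = 0.00052), a call lost without the dye term (limma adjusted p = 0.098). PRDX6, a peroxiredoxin that uses glutathione, was called higher at 0.38 (standard error 0.088, 3 arrays, limma adjusted p = 0.013), but it read 1.24 on array 2 and -0.58 and -0.39 on arrays 3 and 4, so that its sign turned with the dye, and the call was lost with median centring, with marked spots kept and without the dye term. GLRX, a glutaredoxin, had 0.29 ± 0.38 (SD, n = 4, limma adjusted p = 0.021) and was below 0 on array 2, and its call was lost under 5 of 13 other settings.

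Among 15 tested glutathione transferases and glyoxalases none rose and 1 fell (0 and 3 at an unadjusted p under 0.05 from limma), with a median log2 ratio of -0.08. The gene called lower was GSTT1, at -0.42 ± 0.51 (SD, n = 4, limma adjusted p = 0.0033), with values of 0.04, -0.04, -0.68 and -1.02 on arrays 1 to 4. The call was lost without array 4 and without the dye term. Of 7 tested genes for the breakdown and export of glutathione none passed the limma threshold in either direction, and their median was 0.01. At an unadjusted p under 0.05, 2 of them were higher and 1 was lower. CHAC2, the paralog of CHAC1, is in that list and had a log2 ratio of 0.01 ± 0.10 (SD, n = 4), a gene singled out for its kinship with CHAC1 rather than for its value.

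**Figure D4:**
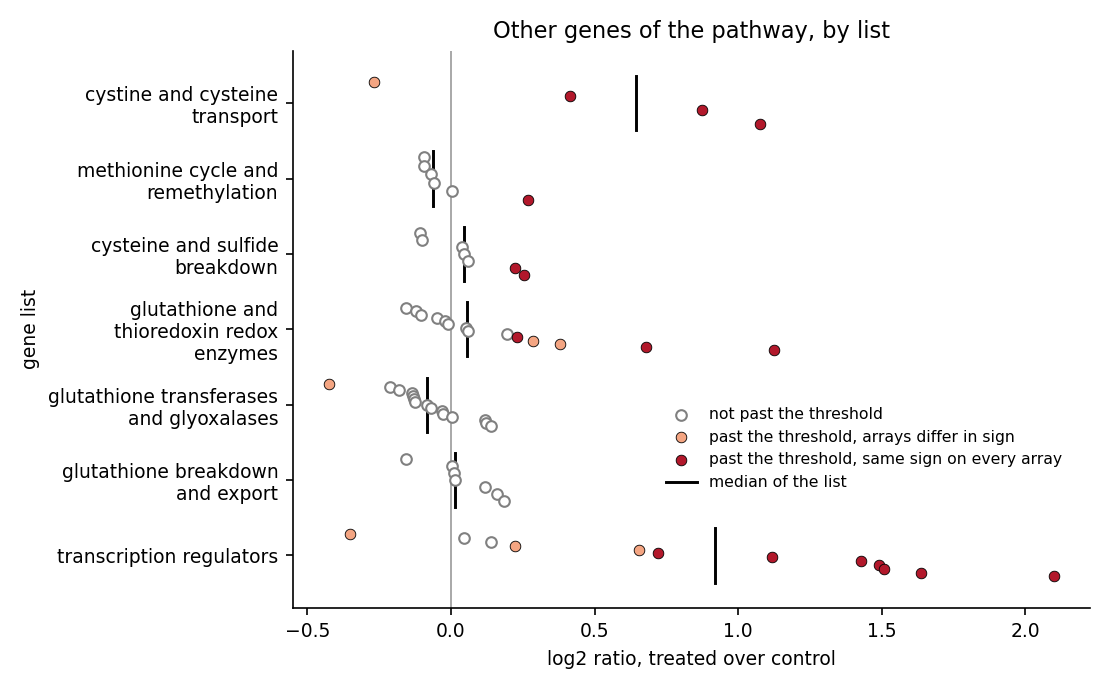
Log2 ratio of treated to control cells (horizontal axis) of the 65 tested genes of the 7 lists (vertical axis), 1 point a gene, with the median of each list as a black line. Filled points passed a limma adjusted p of 0.05, dark where every array had the same sign and light where the arrays differed in sign. The transcription regulators have the highest median (0.92), and no point of the breakdown and export list is filled.

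Transcription regulators of these genes were the list with the most calls. Of 12 tested, 9 rose and 1 fell, with a median log2 ratio of 0.92, where 24.3% of all probes were higher and 13% lower. CEBPB could not be tested because its spots were marked on 3 arrays. This list too was chosen with earlier results of these data known, and the study reported ATF3, DDIT3 and TRIB3 as induced. Nothing is therefore read from its count or its median, and the p-values of its genes are not independent support for their rise or fall. ATF3 rose by 2.10 ± 0.39 (SD, n = 4, limma adjusted p = 2.2e-05), DDIT3 by 1.64 ± 0.31 (SD, n = 4), MAFF by 1.51 ± 0.40 (SD, n = 4) and CEBPG by 1.49 ± 0.14 (SD, n = 4). ATF3, DDIT3 and CEBPG are bZIP factors of the stress response that can pair with ATF4 or bind its sites, and MAFF is a small MAF protein, the partner of NFE2L2 on antioxidant response elements. These 4 genes were higher on every array and past the threshold in every alternative setting that tested them. ATF4 itself rose by 0.72 ± 0.38 (SD, n = 4, limma adjusted p = 0.00016), with values from 0.28 on array 3 to 1.08 on array 1, a call lost without the dye term (limma adjusted p = 0.14). NFE2L2 was the regulator called lower, at -0.35 ± 0.44 (SD, n = 4, limma adjusted p = 0.0051). With the processed signals of the scanner software and with the series value table its log2 ratio was -0.91. Its values were -0.78 and -0.67 on the Cy5 arrays and 0.13 and -0.08 on the Cy3 arrays, the call was lost without array 4 and without the dye term, and it was well above background in the treated channel of 2 arrays. The study measured messenger RNA, and protein levels or nuclear location of these factors were not measured here.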

How the data were processed

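Gene expression was measured on 4 two-colour arrays with a dye swap. Per the file headers, the authors quantified the scans with Agilent Feature Extraction 9.5.1.1 and deposited raw and processed intensity values of both channels for 14833 features, 14297 of them gene probes. They also deposited log10 ratios, in the array files as Cy5 over Cy3 and in a series table as treated over control. Raw intensities were corrected with normexp (offset 50) over all spots and normalized by loess (span 0.3), without control spots and spots marked as outliers (1.57% to 8.08% of gene probes on an array). No spot was saturated, and the number of arrays limits the precision. Probes were named through transcript accessions in RefSeq (12002 of 14297), otherwise by the files, and probe positions are on hg18.

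The 8852 probes that passed the filter were fitted with limma 3.58.1 in R 4.3.3, with treatment and dye terms and Benjamini-Hochberg adjustment over all of them. The SD is over arrays, and a fitted ratio is the mean of both orientation means. The fit was checked on simulated data with independent noise on each array. That check cannot show how the fit behaves where arrays share noise. The 10 genes and the 7 lists were chosen with earlier results of these data known. Named are, beside the 10 genes, up to 4 called genes a list and direction, SLC3A2, ATF4, NFE2L2, and the 3 genes nearest to SLC7A11 and to CTH. Promoters of 250 bases were searched for motifs in Python 3.11.15.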

Additional observations from a re-analysis of the deposited data

Results flagged for a closer look

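The log2 ratios of 28 genes measured on all 4 arrays were looked at for an array far from the other 3 by Dixon's test. They were taken from the 10 genes and the called genes of the lists. The test marks about 1 gene in 20 by chance where the 4 values come from 1 normal distribution. Here the values come from both dye orientations and the list genes were taken for their calls, so that rate need not hold. The test marked 3 genes, each for array 1, which also had the largest share of marked spots (8.08%). Array 1's part in these values was not tested.

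SLC7A8 read 0.11 on array 1 against -0.39, -0.36 and -0.42 on the others, a gap of 0.901 of its range. TXNRD1 read 0.30 against 0.77, 0.81 and 0.84, a gap of 0.867 of its range. MAFG, a small MAF protein named here only for this gap, read 0.53 against 1.33, 1.32 and 1.29, a gap of 0.940 of its range. Without array 1 the fitted log2 ratios were -0.39 for SLC7A8, 0.80 for TXNRD1 and 1.32 for MAFG.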

How the results depend on the processing

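The direction of SLC7A11, CTH, GCLM, GCLC and CHAC1 (higher) and of MAT2A (lower) was kept under every alternative that could fit them. Their log2 ratios ran, in this order and over the settings that used both orientations, from 2.55 to 3.19, 2.28 to 2.65, 1.41 to 1.56, 0.97 to 1.17, 0.47 to 0.69 and -0.95 to -0.68. Within the dye orientations they ran further, being 1.58 on the Cy5 and 3.66 on the Cy3 arrays for SLC7A11, 2.27 and 2.66 for CTH, 0.78 and 2.19 for GCLM, 0.48 and 1.60 for GCLC, 0.91 and 0.24 for CHAC1 and -1.02 and -0.69 for MAT2A. When arrays were centred on their median rather than by loess, 7 of the 10 genes differed between dye orientations. The share of all probes that did so was 58.2% with loess and was not counted with median centring, so nothing is read from this count. When treated and control signals both had to stand well above background on every array, SLC7A11 dropped out, and the median log2 ratio of the other 9 genes was 0.12. Without the dye term 6 genes of the lists were higher and 0 lower, and of the 10 genes 1 (CTH) was higher and 0 lower, while 52 of all probes were higher. At an adjusted p under 0.01, 13 genes of the lists were higher, beside 1353 of all 8852 probes. Leaving out each array in turn gave medians of 0.40 to 1.07 over the genes that could still be fitted, since CBS, GSS and MAT2A lacked array 1 and could be fitted only when array 1 was the one left out. It gave 12 to 20 higher and 0 to 9 lower genes of the lists, with 9 lower without array 1 and 13 higher without array 3. Without array 4, 12 were higher and 0 lower. Of all probes tested in these fits, 1008 to 2590 were higher and 283 to 1469 lower. Among the 10 genes 0 to 1 were called lower. The 0 came from fits that could not include the gene called lower in the main fit. The cause of the other differences was not tested. The other medians moved by less than their spread and the other counts by at most 1.5 times. Each of the 10 genes had 1 probe, so probes were not averaged. No paired analysis was possible because the labels give 1 group of arrays, each of which already pairs treated with control RNA. The wide background of arrays 1 and 2 limits dim probes such as the SLC7A11 control.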
